A study of Mus musculus with 15 samples.

Results

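The genes described here encode the enzymes of glycolysis, of pyruvate entry into mitochondrial metabolism, of the pentose phosphate route and of the citrate cycle in the fat around the mouse prostate. They were taken by symbol from a list of 45 genes, and all 45 were among the 23995 symbols measured by RNA sequencing of total RNA depleted of ribosomal RNA. The list holds 16 genes of glycolysis, 9 of pyruvate entry, 5 of the pentose phosphate route and 15 of the citrate cycle. A filter on low values kept 5615 symbols for testing, and 42 of the 45 genes passed it. All mice were male C57BL/6J and were killed at 26 weeks of age, with 5 mice per group and 1 library per mouse. The estradiol group ate a diet with 60 kcal% fat from 6 weeks of age and, after 12 weeks on it, received a subcutaneous pellet releasing 0.25 mg of estradiol over 60 days. In the placebo group the diet was that same one, with a placebo pellet implanted at the same time. The low-fat (LFD) group ate a diet with 10 kcal% fat throughout and had no pellet, so diet and pellet placement differ together between it and both other groups. All 3 groups stayed on their diets for 8 more weeks.

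Glycolysis splits glucose into pyruvate in the cytosol, and lactate dehydrogenase interconverts pyruvate and lactate. Pyruvate is carried into mitochondria, where the pyruvate dehydrogenase complex turns it into acetyl-CoA and pyruvate carboxylase turns it into oxaloacetate, and the citrate cycle oxidises acetyl-CoA. In white adipocytes, citrate exported from mitochondria supplies carbon for fatty acid synthesis, the pentose phosphate route supplies NADPH for it, and glycerol 3-phosphate made from glycolytic intermediates or from pyruvate supplies the backbone of triglyceride.

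Values are FPKM, read fragments scaled to transcript length and sequencing depth, rescaled so that the typical gene has the same level in every library (scaled FPKM). Fold changes are differences of log2(scaled FPKM + 1), which understates changes of genes with low values, and adjusted p is limma's with Benjamini-Hochberg adjustment over the 5615 symbols, called at 0.05. The read number behind each library is unknown here, so no counting interval is given. On the FPKM as deposited, the median of all tested genes was shifted by 0.77 on the log2 scale between placebo and LFD mice, by -0.27 between estradiol and placebo mice and by 0.49 between estradiol and LFD mice. Directions given here are relative to that median. The adipocyte marker list (Adipoq, Plin1, Lipe, Pnpla2, Fabp4 and Cidec) summed to 796 to 1794 scaled FPKM in every library, and markers of prostate and seminal vesicle summed to at most 0.746, with Svs2 and Svs4 at 0 in all libraries. The sum of the brown fat markers (Ucp1, Cidea, Dio2 and Pdk4) set 3 libraries apart, mostly through Ucp1 and, less, Cidea. Dio2 was highest in estradiol mouse 3 (0.434) and Pdk4 in estradiol mouse 4 (6.63), outside these 3 libraries. Pdk4 is also among the genes next to these routes that are listed apart below. The 4 markers summed to 36.8 in placebo mouse 4, to 20.1 in placebo mouse 3 and to 55.9 in LFD mouse 2. They summed to 10.8 or less in the other 12 libraries. LFD mouse 2 and placebo mouse 4 were also the highest of their groups for many of the genes described here, so main counts are given with and without the 3 libraries. The column headers of the deposited values give 2 sequencing lanes. All estradiol libraries and placebo mice 4 and 5 were on lane 6, and all LFD libraries and placebo mice 1 to 3 on lane 5.

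The promoters of 5 genes that passed the test in at least 1 comparison are shown, Pcx, Pdhb and Pdk2 of pyruvate entry, Pkm of glycolysis and G6pdx of the pentose phosphate route. They were picked from the 17 of 44 genes with ACGTG in a window, so they do not show how common those letters are, and other genes with plainer group differences are not shown. Each is 300 bases from the RefSeq table of build GRCm38.p6, 250 before and 50 after a transcript start, written 5′ to 3′ on the gene's strand, with every ACGTG and its reverse complement CACGT in capitals (CACGTG, the E-box, holds both).
The window of Pcx is chr19:4510222-4510521 (plus strand), that of Pdk2 is chr11:95041322-95041621 (minus strand), that of Pdhb is chr14:8172943-8173242 (minus strand), that of Pkm is chr9:59656977-59657276 (plus strand) and that of G6pdx is chrX:74428831-74429130 (minus strand).
Pcx: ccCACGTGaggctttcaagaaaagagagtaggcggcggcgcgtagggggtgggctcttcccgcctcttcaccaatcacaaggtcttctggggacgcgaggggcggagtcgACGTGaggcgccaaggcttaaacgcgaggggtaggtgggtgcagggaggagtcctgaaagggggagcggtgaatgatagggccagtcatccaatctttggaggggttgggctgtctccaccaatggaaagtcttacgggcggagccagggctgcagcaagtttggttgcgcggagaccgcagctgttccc
Pdk2: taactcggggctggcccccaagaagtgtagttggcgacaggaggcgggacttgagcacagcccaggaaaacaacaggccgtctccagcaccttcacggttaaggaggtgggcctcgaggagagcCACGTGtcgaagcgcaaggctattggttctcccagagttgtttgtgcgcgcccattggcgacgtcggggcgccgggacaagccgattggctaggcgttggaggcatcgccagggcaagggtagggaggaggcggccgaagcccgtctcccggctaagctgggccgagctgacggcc
Pdhb: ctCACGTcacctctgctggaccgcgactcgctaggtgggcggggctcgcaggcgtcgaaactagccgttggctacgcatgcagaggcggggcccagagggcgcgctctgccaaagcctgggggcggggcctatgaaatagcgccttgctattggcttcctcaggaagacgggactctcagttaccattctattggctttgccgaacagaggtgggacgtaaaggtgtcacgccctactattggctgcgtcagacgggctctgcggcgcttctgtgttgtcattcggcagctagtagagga
Pkm: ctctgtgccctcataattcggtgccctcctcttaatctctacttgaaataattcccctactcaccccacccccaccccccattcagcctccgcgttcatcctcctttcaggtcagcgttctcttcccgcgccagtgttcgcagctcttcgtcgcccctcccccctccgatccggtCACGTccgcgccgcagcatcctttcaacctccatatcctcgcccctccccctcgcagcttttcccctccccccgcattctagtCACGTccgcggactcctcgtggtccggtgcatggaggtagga
G6pdx: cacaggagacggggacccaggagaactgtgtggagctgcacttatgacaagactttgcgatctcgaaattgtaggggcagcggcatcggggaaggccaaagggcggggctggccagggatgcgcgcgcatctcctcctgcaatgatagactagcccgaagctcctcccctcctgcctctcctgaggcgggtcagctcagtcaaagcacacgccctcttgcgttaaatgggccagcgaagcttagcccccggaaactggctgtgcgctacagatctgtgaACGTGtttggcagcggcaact
Promoter windows were found for 44 of the 45 genes, 66 windows in all, with Idh3a unmatched. ACGTG, the core letters of the hypoxia response element, stood on either strand in 36.4% of these windows and in 19.6% of the 32851 mouse promoter windows of the same length. The E-box CACGTG stood in 10.6% of them, in Ldha, Ogdh, Pcx, Pdk2 and Pfkm, and in 7.15% of all windows. AGGTCA, a nuclear receptor half-site, stood in 19.7% against 16.3% of all windows, and the longer TCAAGGTCA, which contains it, in 0 of 66 against 0.423% of all. These are matches of letters and not measured binding sites. The table gives 2 windows each for Pcx, Pdk2 and Pkm, and the one that holds the marked letters is printed, since the other holds none. The windows of Pkm and G6pdx lie wholly inside these genes as the annotation used for gene coordinates places them.

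Summed over genes, glycolysis was the most abundant of the 4 groups of enzymes per transcript length, at 124 ± 16.0 scaled FPKM in estradiol mice, 157 ± 17.3 in placebo mice and 155 ± 36.0 in LFD mice (SD, n = 5 each). The lists differ in their number of genes, so these sums do not rank levels per gene. Aldoa, the main aldolase, gave the largest single level, with 47.7 ± 7.37 scaled FPKM in estradiol mice, 61.4 ± 11.6 in placebo mice and 65.5 ± 17.2 in LFD mice (SD, n = 5 each). The citrate cycle summed to 108 ± 11.9 scaled FPKM in estradiol mice, 94.4 ± 22.9 in placebo mice and 129 ± 27.7 in LFD mice. Pyruvate entry summed to 54.9 ± 7.43 scaled FPKM in estradiol mice, 43.5 ± 8.46 in placebo mice and 85.9 ± 23.4 in LFD mice. The pentose phosphate route summed to 49.8 ± 9.22 scaled FPKM in estradiol mice, 40.2 ± 2.74 in placebo mice and 64.0 ± 19.9 in LFD mice. The large spread in the LFD group came with LFD mouse 2, which was the highest of its group in all 4 sums.

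**Figure D1:**
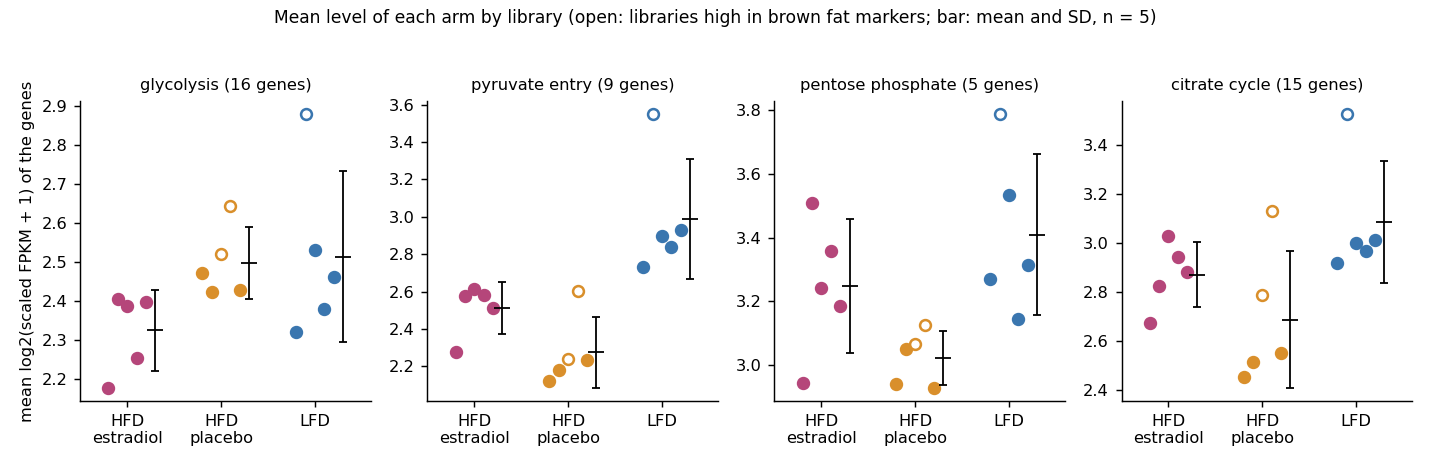
Mean log2(scaled FPKM + 1) over the genes of each group of enzymes (vertical axis) in every library, by treatment group; open circles mark the 3 libraries high in brown fat markers, and bars give the mean and SD of 5 mice. For pyruvate entry the LFD libraries sit between 2.73 and 3.55, above all estradiol libraries (2.28 to 2.62) and all placebo libraries (2.12 to 2.61), while for glycolysis the groups overlap more.

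The first comparison, placebo mice against LFD mice, asks what the high-fat diet with a placebo pellet did relative to the low-fat diet. In placebo mice, genes of pyruvate entry, the citrate cycle and the non-oxidative pentose phosphate route were lower, and most of glycolysis passed the test in neither direction. Of the 42 tested genes 21 were lower (50%), against 22.0% of all tested genes, and 3 were higher (7.14%), against 21.3% of all. The groups did not overlap for 11 of the 42 (26.2%), against 27.6% of all tested genes, a share near the background. The median log2 fold change was -0.32 over the 42 genes and -0.01 over all tested genes. By group of enzymes it was -0.84 for pyruvate entry, -0.44 for the citrate cycle, -0.23 for the pentose phosphate route and 0.07 for glycolysis. On the FPKM as deposited, relative to the shift of all genes, these 4 medians were -0.61, -0.14, 0.06 and 0.27, so the sign for the pentose phosphate route depended on the scaling. In bulk tissue, fewer cells of a type and less RNA per cell cannot be told apart.

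Pyruvate entry changed most evenly, with 7 of its 8 tested genes lower in placebo mice (87.5%), against 22.0% of all tested genes. None was higher, against 21.3% of all. Pcx, pyruvate carboxylase (build GRCm38, chr19:4510472-4621752, plus strand), had 13.5, 20.6, 19.1, 22.5 and 17.7 in the estradiol mice, 13.0, 13.2, 10.5, 18.5 and 13.3 in the placebo mice and 24.7, 37.4, 31.6, 26.2 and 28.5 in the LFD mice, in scaled FPKM. Every placebo library was below every LFD library, and the estradiol libraries lay between them except that placebo mouse 4 exceeded estradiol mice 1 and 5. Its level in placebo mice was 46.2% of that in LFD mice, and its log2 fold change was -1.07 ± 0.16 (SE, adjusted p = 5.23e-05).
Pdhb, the beta subunit of the E1 enzyme of pyruvate dehydrogenase, had 4.93, 7.58, 6.84, 6.59 and 6.58 in the estradiol mice, 3.52, 3.50, 4.60, 6.23 and 4.04 in the placebo mice and 8.54, 16.7, 8.16, 8.55 and 10.2 in the LFD mice, in scaled FPKM. All placebo libraries were again below all LFD libraries, with placebo mouse 4 the highest of its group and LFD mouse 2 far above the other LFD mice. The log2 fold change of Pdhb was -1.06 ± 0.18 (SE, adjusted p = 1.65e-04). Its partner Pdha1, the E1 alpha subunit, had 6.41, 8.81, 8.29, 9.08 and 7.55 in the estradiol mice, 5.03, 5.90, 6.30, 8.64 and 5.70 in the placebo mice and 9.74, 22.3, 10.5, 9.52 and 10.8 in the LFD mice, in scaled FPKM. Here too placebo and LFD libraries did not overlap, and the log2 fold change was -0.84 ± 0.19 (SE, adjusted p = 0.00221).
Mpc1, one subunit of the mitochondrial pyruvate carrier, had 4.21, 6.45, 7.14, 5.44 and 5.76 in the estradiol mice, 3.70, 4.70, 4.76, 6.41 and 4.61 in the placebo mice and 8.83, 17.6, 10.7, 9.40 and 7.45 in the LFD mice, in scaled FPKM. The highest placebo value stayed under the lowest LFD value, and the log2 fold change was -0.97 ± 0.18 (SE, adjusted p = 4.93e-04). Pdk2, a kinase that inactivates pyruvate dehydrogenase, had 2.58, 2.55, 2.97, 4.16 and 3.86 in the estradiol mice, 1.53, 1.17, 1.39, 1.98 and 1.31 in the placebo mice and 2.69, 4.37, 2.37, 3.67 and 4.25 in the LFD mice, in scaled FPKM. All placebo libraries were below all estradiol and all LFD libraries, and those groups overlapped with each other. Its log2 fold change between placebo and LFD mice was -0.84 ± 0.14 (SE, adjusted p = 2.24e-04). Kinase and enzyme subunits were thus lower together. Dld, the E3 subunit, fell by 0.55 (adjusted p = 0.00888), and Mpc2, the other carrier subunit, fell by 0.41 (adjusted p = 0.0308) on the log2 scale. Dlat, the E2 subunit, missed the threshold at -0.22 ± 0.15 (SE, adjusted p = 0.266). The call of Mpc2 was lost without any 1 of LFD mice 2, 3 and 5 and placebo mice 1, 2 and 3, with adjusted p between 0.0527 and 0.0828.

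Of the 15 citrate cycle genes, all tested, 10 were lower in placebo mice (66.7%), against 22.0% of all tested genes. None was higher, against 21.3% of all. Aco1, the cytosolic aconitase, which also acts as an iron regulatory protein, had 4.58, 5.31, 5.27, 5.97 and 5.22 in the estradiol mice, 2.88, 2.92, 3.67, 4.72 and 3.53 in the placebo mice and 6.01, 7.42, 5.57, 6.84 and 6.38 in the LFD mice, in scaled FPKM. The placebo libraries were all below the LFD libraries, and placebo mouse 4 reached the lower end of the estradiol libraries. The log2 fold change came to -0.72 ± 0.10 (SE, adjusted p = 5.08e-05). Idh3b, a subunit of the NAD-dependent isocitrate dehydrogenase, had 8.18, 9.59, 11.1, 10.0 and 10.1 in the estradiol mice, 6.47, 7.16, 8.66, 11.2 and 6.77 in the placebo mice and 10.7, 21.01, 12.6, 11.6 and 12.6 in the LFD mice, in scaled FPKM. Only placebo mouse 4 reached the LFD range, and LFD mouse 2 stood well above its group. This was a log2 fold change of -0.69 ± 0.16 (SE, adjusted p = 0.00309).
Ogdh, the E1 enzyme of the 2-oxoglutarate dehydrogenase complex, had 4.53, 4.25, 5.28, 5.21 and 4.64 in the estradiol mice, 3.35, 3.48, 4.07, 5.05 and 3.37 in the placebo mice and 5.34, 10.1, 5.09, 5.62 and 5.41 in the LFD mice, in scaled FPKM. Placebo and LFD libraries did not overlap, by a narrow margin between placebo mouse 4 and LFD mouse 3. The log2 fold change of Ogdh was -0.56 ± 0.15 (SE, adjusted p = 0.00547). Suclg2, the GTP-specific subunit of succinyl-CoA ligase, had 1.13, 1.11, 1.10, 1.21 and 1.11 in the estradiol mice, 0.478, 0.473, 0.634, 0.910 and 0.659 in the placebo mice and 1.02, 1.71, 1.12, 1.25 and 1.58 in the LFD mice, in scaled FPKM. Every placebo library was below every estradiol and every LFD library. Its log2 fold change between placebo and LFD mice was -0.52 ± 0.09 (SE, adjusted p = 1.87e-04). Idh3g (-0.51), Mdh1 (-0.46), Fh1 (-0.46), Cs (-0.44), Mdh2 (-0.40) and Dlst (-0.38) fell as well, with adjusted p between 0.00377 and 0.0358. Cs, citrate synthase, averaged 11.4 ± 3.04 scaled FPKM in placebo mice and 15.7 ± 3.85 in LFD mice (SD, n = 5 each). Without LFD mouse 2 the adjusted p was 0.0949 for Cs, 0.0734 for Dlst, 0.057 for Fh1 and 0.0568 for Mdh2. These 4 calls were also lost without placebo mouse 2 (0.053 to 0.0848), those of Cs, Dlst and Fh1 without placebo mouse 1 (0.0559 to 0.0894), those of Cs, Dlst and Mdh2 without placebo mouse 5 (0.0526 to 0.0773), and that of Cs without placebo mouse 3 (0.0549) or LFD mouse 3 (0.0568).
The 5 genes without a call were Idh1, Idh2, Idh3a, Sucla2 and Suclg1. Sucla2, the ATP-specific subunit of succinyl-CoA ligase, had 3.78, 4.00, 6.35, 4.70 and 4.97 in the estradiol mice, 3.94, 4.62, 6.79, 10.9 and 4.52 in the placebo mice and 5.60, 11.9, 5.49, 5.65 and 5.66 in the LFD mice, in scaled FPKM. Its highest values were those of placebo mouse 4 and LFD mouse 2, and the remaining LFD libraries lay within the placebo range. Its log2 fold change was -0.16 ± 0.23 (SE, adjusted p = 0.620), unlike that of the GTP-specific Suclg2.

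In the pentose phosphate route, 2 of 5 genes were lower in placebo mice (40%), against 22.0% of all tested genes. Both belonged to the non-oxidative branch. Tkt, transketolase, had 9.11, 19.3, 11.3, 12.7 and 9.10 in the estradiol mice, 7.89, 8.57, 10.6, 10.9 and 7.76 in the placebo mice and 18.7, 49.3, 23.1, 13.4 and 20.7 in the LFD mice, in scaled FPKM. All placebo libraries were below all LFD libraries, and LFD mouse 2 stood far above the other LFD mice. The log2 fold change came to -1.24 ± 0.27 (SE, adjusted p = 0.00149), the most negative of the 42 genes in any of the 3 comparisons. Taldo1, transaldolase, had 9.02, 11.6, 11.0, 10.2 and 9.37 in the estradiol mice, 8.48, 9.27, 9.97, 13.2 and 10.4 in the placebo mice and 14.1, 20.8, 16.1, 13.3 and 16.3 in the LFD mice, in scaled FPKM. The highest placebo value fell just under the lowest LFD value, and the log2 fold change was -0.60 ± 0.12 (SE, adjusted p = 0.00105). G6pdx, Pgd and Pgls, the enzymes of the oxidative branch that yields NADPH, had log2 fold changes of -0.05, -0.23 and 0.19, none of which passed the test.

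In glycolysis 3 of 14 tested genes were higher in placebo mice (21.4%), against 21.3% of all tested genes, 2 were lower (14.3%), against 22.0% of all, and 9 had no call, so these shares were near or under the background. Tpi1, triose phosphate isomerase, had 12.1, 18.5, 19.0, 13.7 and 17.8 in the estradiol mice, 17.6, 18.5, 19.9, 22.9 and 18.7 in the placebo mice and 11.4, 14.0, 18.4, 13.2 and 12.2 in the LFD mice, in scaled FPKM. Placebo libraries were above all LFD libraries but LFD mouse 3, and the log2 fold change was 0.48 ± 0.14 (SE, adjusted p = 0.0116). Pgk1, phosphoglycerate kinase, rose by 0.32 ± 0.12 (SE, adjusted p = 0.0356) and Hk1, a hexokinase found in most tissues, by 0.18 ± 0.06 (SE, adjusted p = 0.0165) on the log2 scale. Hk2, the hexokinase of insulin-responsive tissues, had 1.70, 2.34, 2.10, 1.96 and 2.03 in the estradiol mice, 1.29, 1.22, 1.45, 2.23 and 1.31 in the placebo mice and 2.50, 5.61, 2.11, 2.93 and 2.96 in the LFD mice, in scaled FPKM. Only placebo mouse 4 reached the LFD range. This was a log2 fold change of -0.72 ± 0.16 (SE, adjusted p = 0.00185). Ldhb, the heart-type lactate dehydrogenase subunit, had 2.24, 2.24, 2.68, 2.02 and 2.87 in the estradiol mice, 1.33, 0.945, 1.21, 2.64 and 1.10 in the placebo mice and 2.32, 4.21, 2.46, 3.00 and 4.04 in the LFD mice, in scaled FPKM. The placebo libraries other than placebo mouse 4 were below every library of both other groups. Its log2 fold change was -0.80 ± 0.16 (SE, adjusted p = 9.06e-04), while Ldha, the muscle-type subunit, stood at 0.03 ± 0.13 (SE, adjusted p = 0.854). Gapdh, Aldoa, Pgam1, Eno1, Gpi1, Pfkl, Pfkp and Pkm made up the rest, with log2 fold changes from -0.08 for Gapdh and for Aldoa to 0.26 for Pkm. Processed pseudogenes or near copies of Gapdh, Pgk1, Pgam1, Aldoa, Ldha, Eno1 and Mpc1 are annotated in the mouse genome, and the sources used here do not state how reads shared with them were counted, so the levels of these genes are uncertain. The call of Pgk1 was lost without LFD mice 1, 4 or 5 or placebo mice 3 or 4, with adjusted p between 0.0617 and 0.0986. Without LFD mouse 2, 6 genes of the whole set were higher in placebo mice in place of 3.

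Without the 3 libraries high in brown fat markers, 22 of the 42 genes were lower in placebo than in LFD mice, against 18.8% of all tested genes, and 3 were higher (Hk1, Pgk1 and Pkm), against 20.0% of all. The medians were then -0.81 for pyruvate entry, -0.50 for the citrate cycle, -0.09 for the pentose phosphate route and 0.14 for glycolysis. Without LFD mouse 2 alone, that of the pentose phosphate route was -0.13, that of glycolysis 0.15 and that of all 42 genes -0.20. The pentose phosphate median was -0.14 without LFD mouse 3. The glycolysis median lay between 0.02 and 0.05 without LFD mouse 1, 4 or 5 or placebo mouse 4, and was 0.11 without placebo mouse 2. Within lane 5, which holds placebo mice 1 to 3 and all LFD mice, 21 genes were lower, against 17.5% of all tested genes, and 1 was higher, against 18.9% of all. With lane as a term in the model the counts were again 21 lower and 1 higher, against 20.7% and 21.2% of all. Other cell-type markers differed between these groups too. All 6 adipocyte markers were lower in placebo than in LFD mice, with log2 fold changes from -1.12 for Pnpla2 to -0.54 for Fabp4. Their sum, most of it Fabp4, was 796 to 1340 scaled FPKM in placebo mice and 1175 to 1794 in LFD mice. In that sum 1 placebo library lay inside the LFD range. All 7 macrophage markers were higher in placebo than in LFD mice. These summed to 115 to 374 in placebo mice and 36.4 to 98.2 in LFD mice, and these ranges did not overlap. Their part in the result was not tested.

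**Figure D2:**
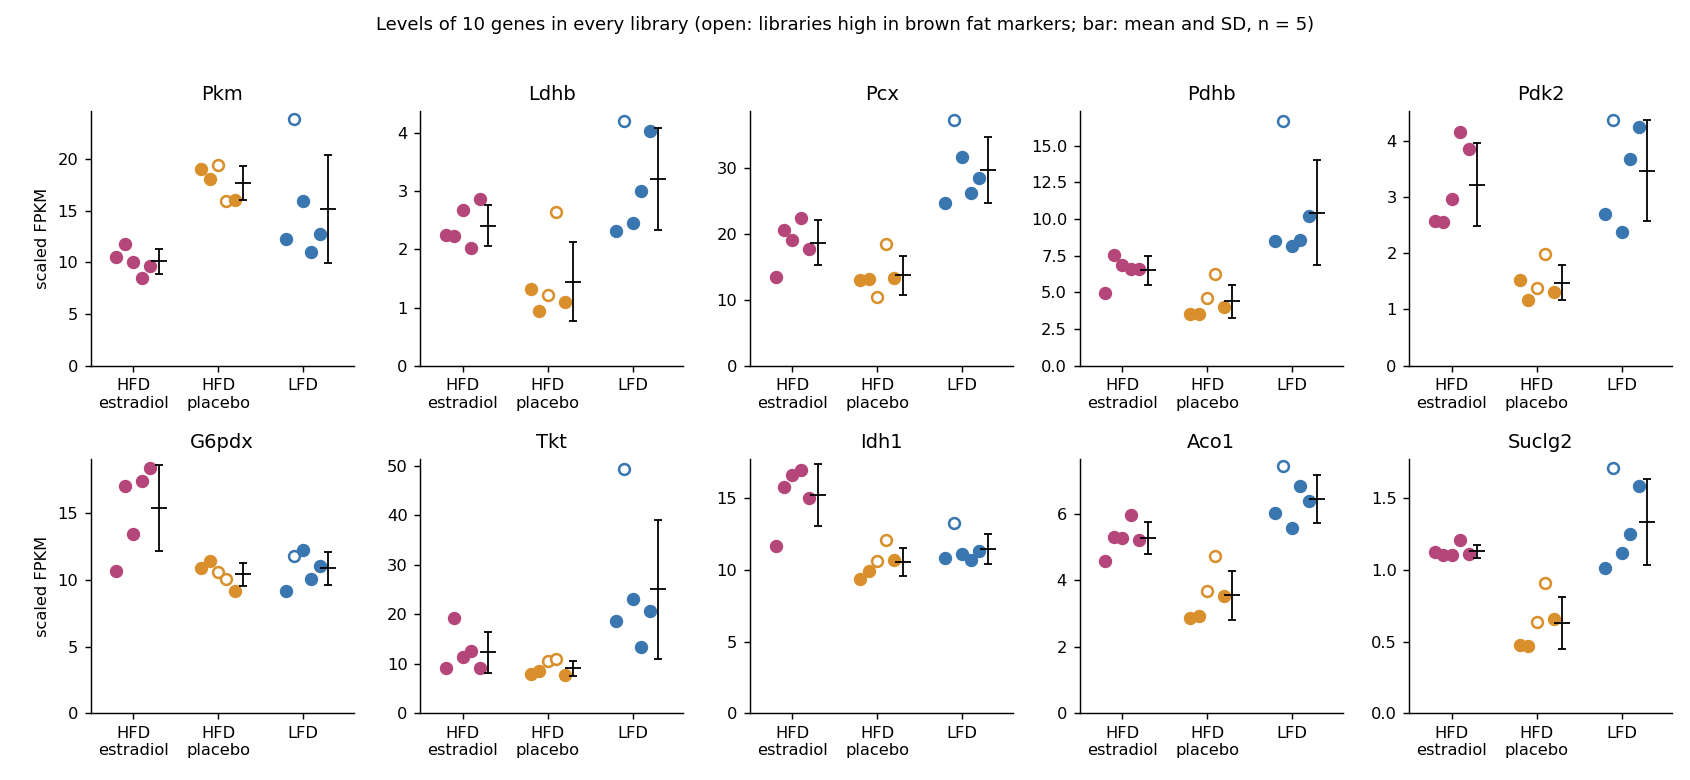
Scaled FPKM (vertical axes from 0) of 10 genes in every library by group; open circles mark the libraries high in brown fat markers and bars give the mean and SD of 5 mice. Pdk2 and Suclg2 show all placebo libraries below both other groups, Pkm shows all estradiol libraries below all placebo libraries, and G6pdx and Idh1 are high in most estradiol libraries.

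The second comparison, estradiol against placebo mice, holds the high-fat diet and the pellet procedure constant and asks what estradiol did. With all libraries, 7 of the 42 genes were higher in estradiol mice (16.7%), against 14.3% of all tested genes, and 4 were lower (9.52%), against 16.0% of all. The groups did not overlap for 6 of the 42 genes (14.3%), against 21.2% of all tested genes. These shares lie near or under the background, so the counts are no result about the set as a whole. All 4 lower genes belonged to glycolysis, and 6 of the 7 higher genes to the other groups of enzymes. The median log2 fold change was -0.26 for glycolysis, 0.27 for pyruvate entry, 0.15 for the pentose phosphate route and 0.22 for the citrate cycle, against 0.01 for all tested genes. On the FPKM as deposited, relative to the shift of all genes, these medians were -0.33, 0.21, 0.11 and 0.15. Single libraries moved them. Without estradiol mouse 1 the glycolysis median was -0.16 and that of the pentose phosphate route 0.28. The citrate cycle median was 0.14 without placebo mouse 1 or 5 and 0.34 without placebo mouse 4.

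Pkm, pyruvate kinase of the muscle type, which catalyses the last step of glycolysis, had 10.5, 11.7, 10.1, 8.45 and 9.69 in the estradiol mice, 19.0, 18.1, 19.4, 15.9 and 16.0 in the placebo mice and 12.3, 23.9, 16.0, 11.0 and 12.7 in the LFD mice, in scaled FPKM. Every estradiol library was below every placebo library, and below every LFD library except that estradiol mouse 2 exceeded LFD mouse 4. Its level in estradiol mice was 57.0% of that in placebo mice, and its log2 fold change was -0.76 ± 0.16 (SE, adjusted p = 0.00188). Pfkl, the liver-type phosphofructokinase, had 1.63, 1.81, 1.85, 1.48 and 1.98 in the estradiol mice, 2.86, 2.23, 2.73, 3.48 and 2.85 in the placebo mice and 1.88, 4.13, 1.99, 2.02 and 2.66 in the LFD mice, in scaled FPKM. The estradiol libraries were all below the placebo libraries. The log2 fold change came to -0.47 ± 0.13 (SE, adjusted p = 0.0132). Pgk1 averaged 1.79 ± 0.0934 scaled FPKM in estradiol mice and 2.68 ± 0.492 in placebo mice (SD, n = 5 each), without overlap, and fell by 0.39 on the log2 scale (adjusted p = 0.0204). Pgam1, phosphoglycerate mutase, averaged 5.26 ± 0.413 in estradiol mice and 6.88 ± 0.778 in placebo mice, also without overlap, and fell by 0.33 (adjusted p = 0.0455). Ldhb went the other way, with a log2 fold change of 0.51 ± 0.16 (SE, adjusted p = 0.0243). The call of Pgk1 was lost without placebo mouse 3 (adjusted p = 0.0588), which left 2 lower genes in place of 4, and that of Pgam1 without placebo mouse 1, 3, 4 or 5 or estradiol mouse 1, 3, 4 or 5 (0.054 to 0.0964). That of Ldhb was lost without placebo mouse 2, 3 or 5 or estradiol mouse 3 or 5 (0.0543 to 0.0667). The remaining 9 tested genes of glycolysis had no call, with log2 fold changes from -0.35 for Aldoa to 0.29 for Hk2.

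In pyruvate entry, Pdk2 averaged 3.22 ± 0.744 scaled FPKM in estradiol mice and 1.47 ± 0.311 in placebo mice (SD, n = 5 each), with a log2 fold change of 0.76 ± 0.14 (SE, adjusted p = 8.26e-04), the largest increase of the 42 genes in this comparison. Pdhb averaged 6.50 ± 0.972 in estradiol mice and 4.38 ± 1.13 in placebo mice, with a log2 fold change of 0.49 ± 0.18 (SE, adjusted p = 0.0439). The call of Pdhb was lost without any 1 of placebo mice 1, 2, 3 and 5, of estradiol mice 2 to 5 or of LFD mouse 5, which shares the estimate of spread, with adjusted p from 0.0535 to 0.103. Pcx lay at the threshold, at 18.7 ± 3.42 in estradiol mice and 13.7 ± 2.95 in placebo mice, with a log2 fold change of 0.42 ± 0.16 (SE, adjusted p = 0.0502).

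G6pdx, glucose-6-phosphate dehydrogenase, which opens the oxidative pentose phosphate branch, had 10.7, 17.0, 13.4, 17.4 and 18.4 in the estradiol mice, 10.8, 11.4, 10.6, 10.1 and 9.13 in the placebo mice and 9.16, 11.8, 12.2, 10.1 and 11.0 in the LFD mice, in scaled FPKM. Apart from estradiol mouse 1, the estradiol libraries were above every library of both other groups. Its log2 fold change over placebo was 0.50 ± 0.13 (SE, adjusted p = 0.00736). The next enzymes of the branch, Pgls and Pgd, stood at 0.11 and 0.15 without a call, as did Tkt at 0.35 and Taldo1 at 0.01.

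Of the citrate cycle list, 3 of 15 genes rose with estradiol over placebo (20%), against 14.3% of all tested genes, a share near the background. Idh1, the cytosolic and peroxisomal NADP-dependent isocitrate dehydrogenase, had 11.7, 15.8, 16.6, 17.0 and 15.0 in the estradiol mice, 9.39, 9.92, 10.6, 12.1 and 10.7 in the placebo mice and 10.8, 13.2, 11.1, 10.7 and 11.3 in the LFD mice, in scaled FPKM. Apart from estradiol mouse 1, which lay between placebo mice 4 and 5, the estradiol libraries were above all others. This was a log2 fold change of 0.48 ± 0.10 (SE, adjusted p = 0.00188), while its mitochondrial counterpart Idh2 stood at 0.03 ± 0.12 (SE, adjusted p = 0.885). Aco1 averaged 5.27 ± 0.492 in estradiol mice and 3.54 ± 0.747 in placebo mice, with a log2 fold change of 0.48 ± 0.10 (SE, adjusted p = 0.00252). Idh1 and Aco1 are the cytosolic counterparts of cycle enzymes. Suclg2 was the single mitochondrial one called, at 1.13 ± 0.0460 in estradiol mice and 0.631 ± 0.178 in placebo mice and a log2 fold change of 0.39 ± 0.09 (SE, adjusted p = 0.00253). The other 12 genes had log2 fold changes from -0.25 for Sucla2 to 0.34 for Fh1.

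This count changed without the libraries high in brown fat markers, 2 of which are placebo libraries. Without them, and without LFD mouse 2, 19 of the 42 genes were higher in estradiol than in placebo mice, against 14.4% of all tested genes, and 3 were lower, against 16.3% of all. Of the 15 citrate cycle genes 12 then rose, with a median log2 fold change of 0.39, as did 4 of 8 genes of pyruvate entry, with a median of 0.40. Aco1 then changed by 0.61 ± 0.09 (SE, adjusted p = 2.05e-04), Idh3b by 0.47 ± 0.10 (SE, adjusted p = 0.00218), Ogdh by 0.39 ± 0.08 (SE, adjusted p = 0.00148), Fh1, fumarase, by 0.52 ± 0.12 (SE, adjusted p = 0.00465) and Cs by 0.32 ± 0.10 (SE, adjusted p = 0.0224) on the log2 scale. Ogdh averaged 4.78 ± 0.448 scaled FPKM in the 5 estradiol mice and 3.40 ± 0.0701 in the 3 remaining placebo mice (SD). Idh3a, Sucla2 and Mdh1 were the 3 genes of the cycle without a call. Pdha1 changed by 0.46 ± 0.10 (SE, adjusted p = 0.00409) and Pcx by 0.46 ± 0.14 (SE, adjusted p = 0.0223), and the lower genes were Pkm, Pfkl and Pgk1. The choice of libraries to leave out was made after the data had been seen. Placebo mice 4 and 3 had the highest citrate cycle means of the placebo libraries, at 3.13 and 2.79 log2, against 2.46 to 2.55. Leaving them out therefore raises the difference from estradiol mice. The counts and adjusted p values without these libraries depend on that choice and are no separate support for a rise with estradiol. Placebo mice 4 and 3 also stood apart in other markers. Placebo mouse 4 had the highest adipocyte sum (1340 scaled FPKM) and the lowest macrophage sum (115) of the placebo libraries. Placebo mouse 3 had the highest macrophage sum of any library (374). Which of these differences moved the count was not tested.

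**Figure D3:**
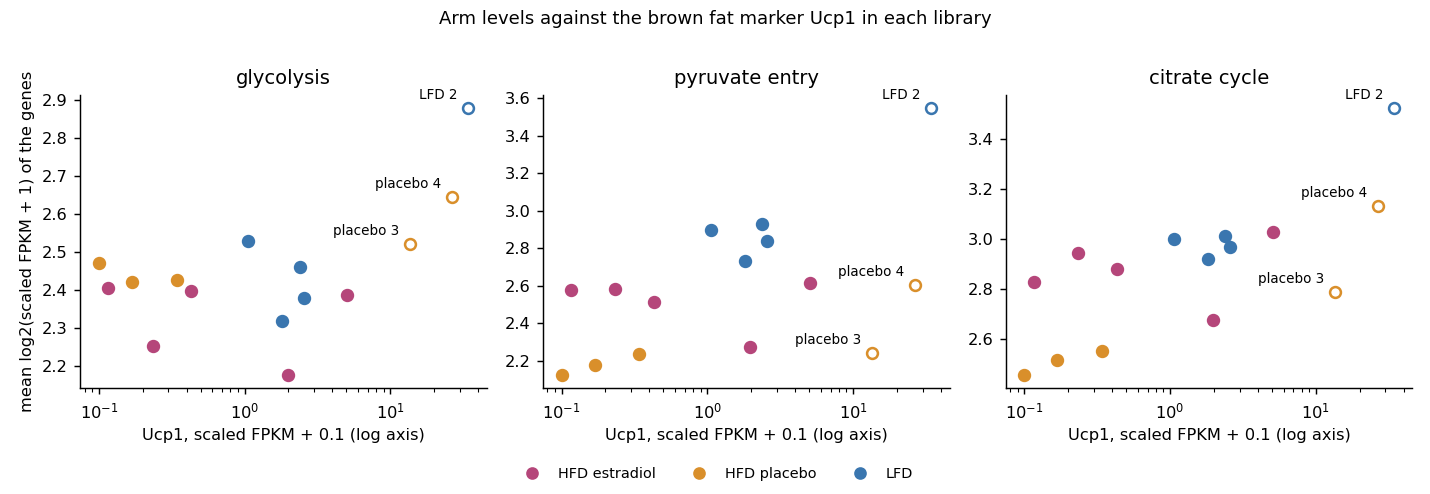
Mean log2(scaled FPKM + 1) over the genes of glycolysis, pyruvate entry and the citrate cycle (vertical axes) against scaled FPKM of Ucp1 plus 0.1 on a log axis, 1 point per library, with the 3 libraries high in brown fat markers open. Ucp1, the uncoupling protein of brown fat, was 26.6 in placebo mouse 4, 13.5 in placebo mouse 3 and 34.2 in LFD mouse 2, and in all 3 panels LFD mouse 2 and placebo mouse 4 are the highest of their groups, with placebo mouse 3 next below placebo mouse 4.

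Lane also moved with this comparison. Within lane 6, which holds all 5 estradiol mice and placebo mice 4 and 5, 1 gene was higher (Pdk2), against 5.33% of all tested genes, and 3 were lower (Pkm, Pfkl and Pgk1), against 6.80% of all. With lane as a term, 2 genes were higher (Pdk2 and G6pdx), against 5.65% of all, and 1 was lower (Pfkl), against 7.02% of all. Calls over all tested genes thus also dropped under both settings. Only Pdk2 and Pfkl kept their calls under every alternative run except the FPKM as deposited, on which no gene of the set was called in this comparison. Of the 7 macrophage markers 6 were lower in estradiol than in placebo mice and none was higher. Of the 6 adipocyte markers 5 were higher and none was lower. Macrophage markers summed to 46.3 to 125 scaled FPKM in estradiol mice and 115 to 374 in placebo mice, overlapping in 1 library of each. Adipocyte markers summed to 1173 to 1682 in estradiol mice and 796 to 1340 in placebo mice. Their part in the result was not tested.

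**Figure D4:**
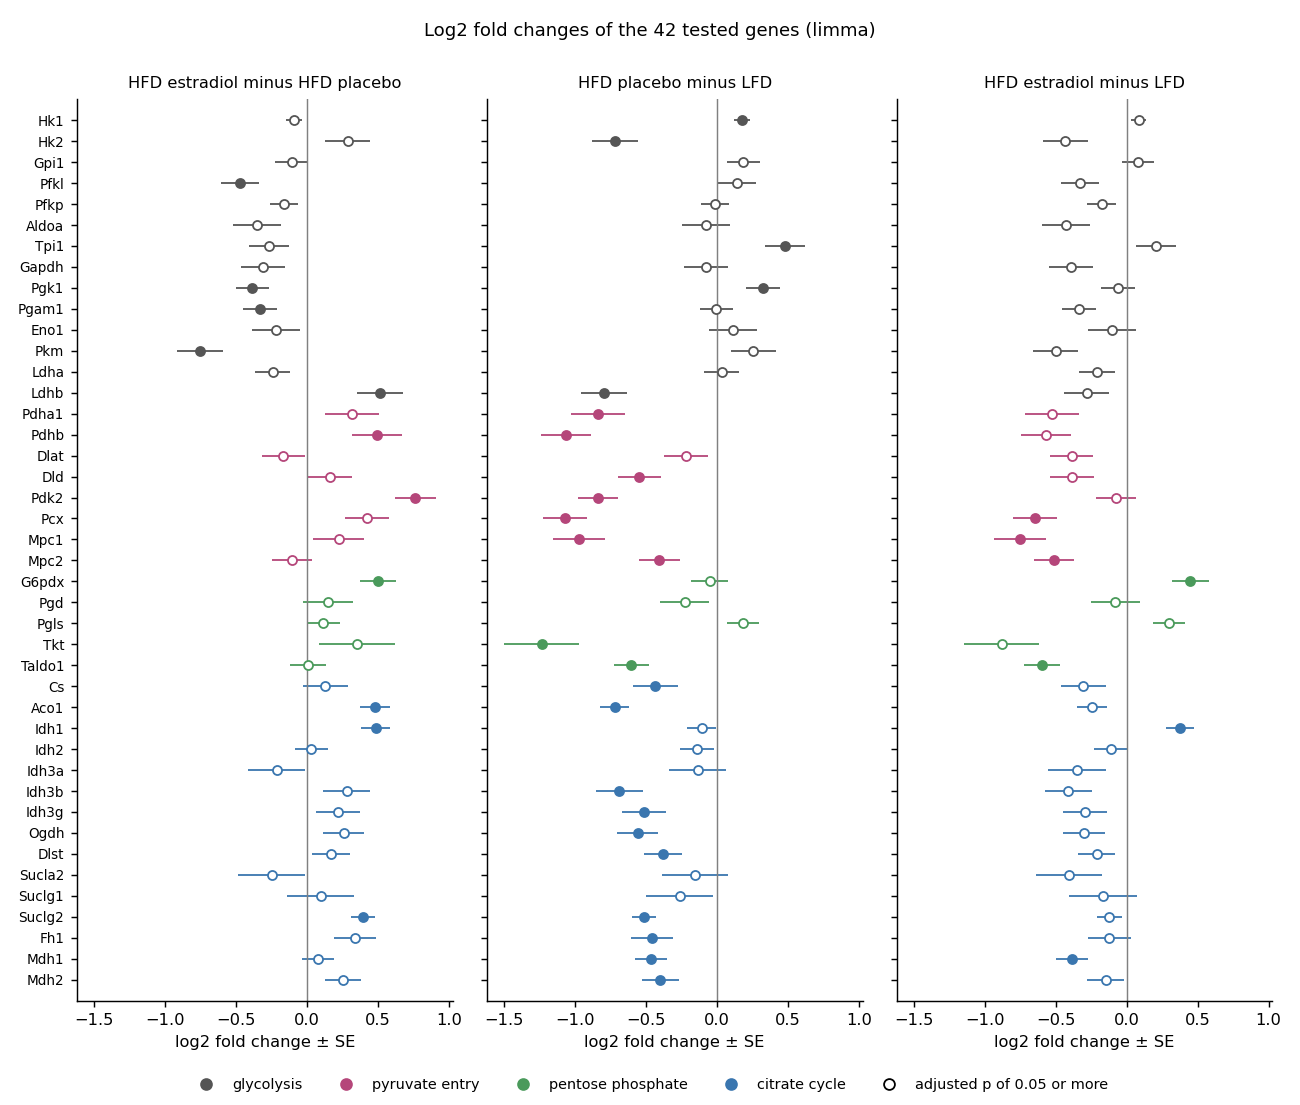
Log2 fold change with its standard error (horizontal axes, the same scale in each panel) of the 42 tested genes in the 3 comparisons, coloured by group of enzymes, filled where the limma adjusted p was under 0.05. In placebo minus LFD the filled points of pyruvate entry and the citrate cycle all lie left of 0, and in estradiol minus placebo the filled points of glycolysis other than Ldhb lie left of 0.

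The third comparison, estradiol against LFD mice, sets the treated obese-diet mice beside the lean-diet controls. It shares its groups with the other comparisons and is not independent of them. In estradiol mice, 5 of the 42 genes were lower (11.9%), against 3.74% of all tested genes, and 2 were higher (4.76%), against 3.95% of all. The groups did not overlap for 6 genes (14.3%), against 8.05% of all. Pyruvate entry held 3 of the lower genes. Pcx averaged 18.7 ± 3.42 scaled FPKM in estradiol mice and 29.7 ± 5.03 in LFD mice (SD, n = 5 each), without overlap, and its log2 fold change was -0.65 ± 0.16 (SE, adjusted p = 0.0178). Mpc1 averaged 5.80 ± 1.10 in estradiol mice and 10.8 ± 3.97 in LFD mice, also without overlap, with a log2 fold change of -0.75 ± 0.18 (SE, adjusted p = 0.0186), and Mpc2 fell by 0.51 (adjusted p = 0.0396). Both carrier subunits were thus below the LFD level in both high-fat groups. Taldo1 averaged 10.2 ± 1.06 in estradiol mice and 16.1 ± 2.90 in LFD mice, with a log2 fold change of -0.60 ± 0.12 (SE, adjusted p = 0.00829). Tkt, at 12.3 ± 4.19 in estradiol mice and 25.03 ± 14.0 in LFD mice, missed the threshold (-0.88 ± 0.27 (SE, adjusted p = 0.0548)). Mdh1, the cytosolic malate dehydrogenase, fell by 0.38 (adjusted p = 0.0499).
The 2 higher genes were G6pdx, with a log2 fold change of 0.45 ± 0.13 (SE, adjusted p = 0.0437), and Idh1, with 0.38 ± 0.10 (SE, adjusted p = 0.0345). Both make NADPH in the cytosol, and both were also higher in estradiol than in placebo mice. No gene of glycolysis had a call, and Pkm came nearest at -0.50 ± 0.16 (SE, adjusted p = 0.0704). The median log2 fold change was -0.52 for pyruvate entry, -0.25 for glycolysis, -0.25 for the citrate cycle and -0.08 for the pentose phosphate route, against -0.00493 for all tested genes. On the FPKM as deposited, relative to the shift of all genes, these were -0.30, -0.13, -0.04 and 0.16, with the sign of the last one turned. Without LFD mouse 2 the citrate cycle median was -0.14. That of the pentose phosphate route ranged from -0.18 without LFD mouse 4 to 0.05 without estradiol mouse 1, and moved by over 1.5 times without LFD mice 1 to 4 or estradiol mice 1 to 4.

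Without the 3 libraries high in brown fat markers, 4 genes were lower in estradiol than in LFD mice (Pcx, Mpc1, Taldo1 and Pdhb), against 3.54% of all tested genes, and 1 was higher (Idh1), against 3.65% of all. G6pdx then had an adjusted p of 0.0625. Most calls of this comparison depended on single libraries. That of G6pdx was lost without any 1 of LFD mice 1, 2, 4 and 5, placebo mice 1, 2, 3 and 5 or estradiol mice 2 to 5 (adjusted p from 0.053 to 0.105), and that of Idh1 without LFD mice 1, 3, 4 or 5 or estradiol mice 2 to 5 (0.0576 to 0.0895). That of Mpc1 was lost without estradiol mouse 1 (0.0511), and that of Mpc2 without LFD mice 2 to 5, placebo mouse 2 or estradiol mice 1, 4 or 5 (0.0509 to 0.1). That of Mdh1 was lost without LFD mice 1, 2, 3 or 5, placebo mice 2, 3 or 5 or any estradiol mouse (0.0602 to 0.122). All estradiol libraries were on lane 6 and all LFD libraries on lane 5, so lane and group cannot be told apart here. A model with lane as a term, estimated through the placebo group, called no gene higher, against 1.66% of all tested genes, and 2 lower, against 1.23% of all. Of the 7 macrophage markers 2 were higher in estradiol than in LFD mice and none was lower, and their sum was 46.3 to 125 scaled FPKM in estradiol mice and 36.4 to 98.2 in LFD mice. Cd68, a lysosomal protein of macrophages, averaged 6.12 ± 2.37 in estradiol mice and 2.73 ± 0.658 in LFD mice, with a log2 fold change of 0.90 ± 0.23 (SE, adjusted p = 0.0270). Mrc1, the macrophage mannose receptor, averaged 6.43 ± 1.504 in estradiol mice and 3.32 ± 0.550 in LFD mice, with a log2 fold change of 0.77 ± 0.14 (SE, adjusted p = 0.00378). For both genes the groups did not overlap. None of the 6 adipocyte markers was called, and their sum was 1173 to 1682 in estradiol mice and 1175 to 1794 in LFD mice. Their part in the result was not tested.

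Ratios of sister genes within a library do not depend on the scaling of libraries. For 12 pairs of isozymes or subunits, log2 ratios of FPKM were compared by 2-sided exact permutation tests, 36 tests in all with Benjamini-Hochberg adjustment. With 5 against 5 mice the smallest p possible is 0.00794. In placebo against LFD mice 8 of the 12 ratios passed, in estradiol against placebo mice 8, and in estradiol against LFD mice 2. Ratios of other gene pairs were not tested, so how often unrelated pairs would pass is not known. The pairs were chosen with earlier results of these data known, so these counts are no result about isozymes as a class. The pair Aldoc/Aldoa was left out because Aldoc was listed at 0 in 4 libraries.

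The log2 ratio of Hk2 to Hk1 was 0.39, 1.14, 0.98, 0.79 and 0.79 in the estradiol mice, 0.10, -0.16, 0.10, 0.99 and -0.11 in the placebo mice and 1.18, 2.34, 1.02, 1.47 and 1.83 in the LFD mice. All placebo ratios were below all LFD ratios, by a difference of -1.39 (exact permutation p = 0.00794, adjusted p = 0.0238). The mean of the estradiol mice lay between, and differed from LFD mice by -0.75 (exact permutation p = 0.0159, adjusted p = 0.0336). Its difference from placebo mice missed the threshold after adjustment, at 0.64 (exact permutation p = 0.0397, adjusted p = 0.0649). The ratio of Ldhb to Ldha averaged -2.87 ± 0.31 in estradiol mice, -3.95 ± 0.44 in placebo mice and -2.71 ± 0.38 in LFD mice (SD, n = 5 each). Placebo ratios overlapped with neither other group, though placebo mouse 4 (-3.210) lay just below estradiol mouse 2 (-3.207). Placebo mice differed from LFD mice by -1.24 (exact permutation p = 0.00794, adjusted p = 0.0238), and estradiol mice differed from placebo mice by 1.09 (exact permutation p = 0.00794, adjusted p = 0.0238).
Pfkm, the muscle-type phosphofructokinase, was too low to be tested alone, at 0.649 ± 0.112 scaled FPKM in estradiol mice, 0.452 ± 0.116 in placebo mice and 0.832 ± 0.252 in LFD mice. Its log2 ratio to Pfkl was -1.44 ± 0.23 in estradiol mice, -2.67 ± 0.33 in placebo mice and -1.60 ± 0.41 in LFD mice. The estradiol and placebo ratios differed by 1.23 (exact permutation p = 0.00794, adjusted p = 0.0238), and the placebo and LFD ratios by -1.07 (exact permutation p = 0.00794, adjusted p = 0.0238). Relative to their partners, muscle-type phosphofructokinase and heart-type lactate dehydrogenase were thus both lower in placebo mice than in either other group. Skeletal muscle markers summed to 14.7 scaled FPKM in estradiol mouse 3 and 26.0 in LFD mouse 4, against 6.28 or less elsewhere, and these were the libraries with the highest Pfkm to Pfkl ratio of their groups. The part of muscle RNA in that ratio was not tested.

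Within pyruvate entry, the log2 ratio of Pdk2 to Pdk1 was 2.01, 1.77, 2.00, 2.62 and 2.40 in the estradiol mice, 1.35, 0.77, 0.88, 1.60 and 0.99 in the placebo mice and 1.34, 0.89, 1.08, 1.98 and 1.78 in the LFD mice. All estradiol ratios were above all placebo ratios, by 1.04 (exact permutation p = 0.00794, adjusted p = 0.0238). Pdk1, the kinase isoform induced by hypoxia, was itself below the filter, at 0.708 ± 0.0486 scaled FPKM in estradiol mice, 0.670 ± 0.0567 in placebo mice and 1.34 ± 0.579 in LFD mice. It was higher in every LFD library than in any library of the other groups. The ratio of Pdhb to Pdha1 differed by -0.30 (exact permutation p = 0.00794, adjusted p = 0.0238) between placebo and LFD mice and by 0.23 (exact permutation p = 0.0159, adjusted p = 0.0336) between estradiol and placebo mice, so the 2 subunits of 1 enzyme did not move by equal amounts. The ratio of Mpc2 to Mpc1 differed by 0.64 (exact permutation p = 0.0159, adjusted p = 0.0336) between placebo and LFD mice and by -0.39 (exact permutation p = 0.0238, adjusted p = 0.0476) between estradiol and placebo mice.

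In the citrate cycle, the ratio of Idh2 to Idh1 averaged -1.51 ± 0.21 in estradiol mice, -1.03 ± 0.29 in placebo mice and -0.97 ± 0.15 in LFD mice. Estradiol mice were below LFD mice without overlap, by -0.54 (exact permutation p = 0.00794, adjusted p = 0.0238), and the difference from placebo mice missed the threshold after adjustment, at -0.48 (exact permutation p = 0.0317, adjusted p = 0.0544). The ratio of Suclg2 to Sucla2 averaged -2.05 ± 0.31 in estradiol mice, -3.22 ± 0.32 in placebo mice and -2.31 ± 0.35 in LFD mice. It differed by 1.17 (exact permutation p = 0.00794, adjusted p = 0.0238) between estradiol and placebo mice and by -0.91 (exact permutation p = 0.0159, adjusted p = 0.0336) between placebo and LFD mice. Idh3b and Idh3g, both subunits of the NAD-dependent isocitrate dehydrogenase, were lower in placebo mice relative to Idh3a, the catalytic subunit. The ratio of Idh3b to Idh3a differed by -0.60 (exact permutation p = 0.00794, adjusted p = 0.0238) between placebo and LFD mice and by 0.56 (exact permutation p = 0.00794, adjusted p = 0.0238) between estradiol and placebo mice. The ratio of Idh3g to Idh3a differed by -0.40 (exact permutation p = 0.0159, adjusted p = 0.0336) between placebo and LFD mice and by 0.49 (exact permutation p = 0.00794, adjusted p = 0.0238) between estradiol and placebo mice. Mdh2 to Mdh1 and Pfkp to Pfkl passed in no comparison.

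**Figure D5:**
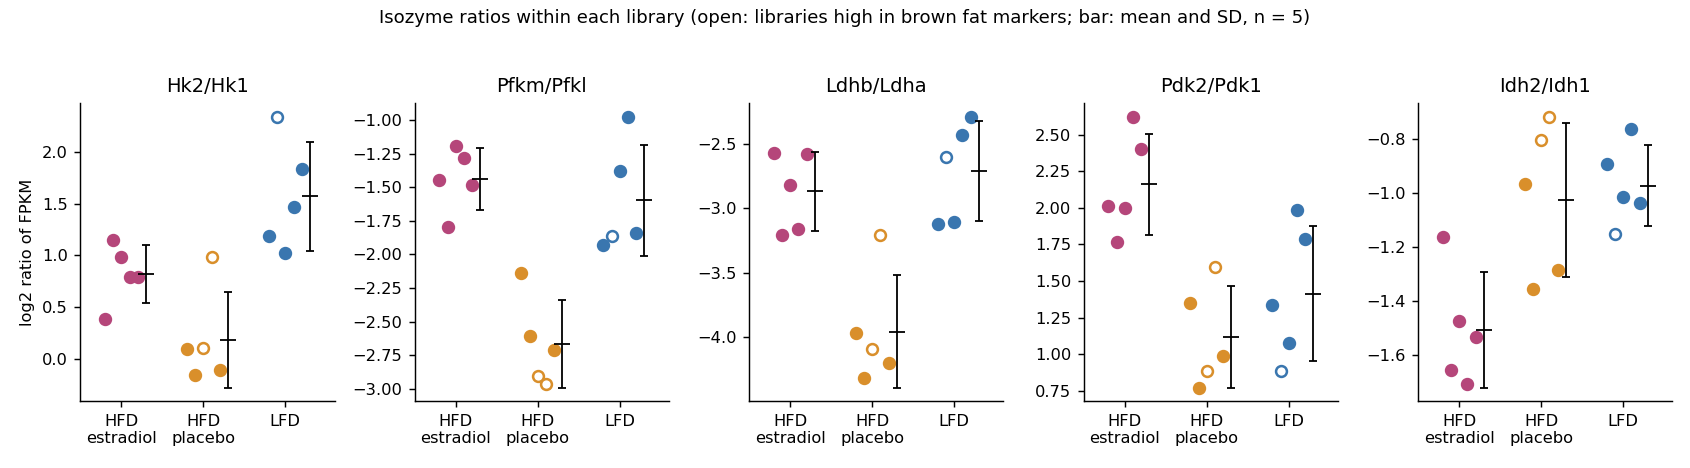
Log2 ratio of FPKM within each library (vertical axes) for 5 pairs of isozymes, by group, with the libraries high in brown fat markers open and the mean and SD of 5 mice as bars. For Pfkm/Pfkl and Ldhb/Ldha all placebo ratios lie below those of both other groups, and for Pdk2/Pdk1 all estradiol ratios lie above all placebo ratios. For Ldhb/Ldha the margin between placebo mouse 4 and estradiol mouse 2 is very narrow.

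Leaving out 1 library gave between 5 and 8 ratios called for placebo against LFD mice, the fewest without placebo mouse 1, 2 or 4, and between 6 and 9 for estradiol against placebo mice. For estradiol against LFD mice it gave 1 without estradiol mouse 1, 3, 4 or 5 or LFD mouse 5, and 4 without estradiol mouse 2. Without the 3 libraries high in brown fat markers no ratio was called in any comparison. The smallest p possible before adjustment is then 0.0286 for placebo against LFD mice, 0.0179 for estradiol against placebo mice and 0.00794 for estradiol against LFD mice. Within lane 5, 5 ratios differed between placebo and LFD mice. Within lane 6, 0 ratios were called between estradiol and placebo mice. With 5 against 2 mice the smallest p possible there is 0.0476, so a ratio could pass adjustment only if all 12 reached it.

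Transporters, regulators and enzymes next to these routes were listed apart from the 45 genes, 52 in all, of which 51 were found and 24 tested. In placebo against LFD mice 14 of the 24 were lower, against 22.0% of all tested genes, and none was higher, against 21.3% of all. In estradiol against placebo mice 6 were higher, against 14.3% of all, and 1 was lower, against 16.0% of all. In estradiol against LFD mice 7 were lower, against 3.74% of all, and none was higher, against 3.95% of all. The median log2 fold changes were -0.46, 0.12 and -0.18. Without the 3 libraries high in brown fat markers, 16 were lower and none higher in placebo against LFD mice, against 18.8% and 20.0% of all. In estradiol against placebo mice 9 were then higher and 1 lower, against 14.4% and 16.3% of all. In estradiol against LFD mice 7 were then lower and none higher, against 3.54% and 3.65% of all. Slc2a4, the insulin-responsive glucose transporter GLUT4, had 3.55, 3.67, 3.49, 3.28 and 3.89 in the estradiol mice, 1.38, 1.54, 1.37, 2.55 and 1.44 in the placebo mice and 4.56, 8.13, 4.90, 4.64 and 5.41 in the LFD mice, in scaled FPKM. The groups were fully separated, with placebo lowest and LFD highest. Its log2 fold change was 0.80 ± 0.13 (SE, adjusted p = 3.00e-04) for estradiol over placebo, -1.29 ± 0.13 (SE, adjusted p = 2.53e-06) for placebo over LFD and -0.49 ± 0.13 (SE, adjusted p = 0.0346) for estradiol over LFD mice. Pck1, which makes phosphoenolpyruvate for glycerol 3-phosphate synthesis in fat, had 50.5, 31.5, 38.2, 74.6 and 62.0 in the estradiol mice, 6.84, 8.67, 17.1, 37.5 and 13.5 in the placebo mice and 54.1, 33.7, 35.5, 61.9 and 88.3 in the LFD mice, in scaled FPKM. Apart from placebo mouse 4, all placebo libraries were below every library of both other groups. The log2 fold change came to 1.73 ± 0.38 (SE, adjusted p = 0.00245) for estradiol over placebo and -1.80 ± 0.38 (SE, adjusted p = 0.00125) for placebo over LFD mice.
Acly, which splits exported citrate into cytosolic acetyl-CoA, averaged 9.34 ± 4.74 scaled FPKM in estradiol mice, 6.23 ± 0.516 in placebo mice and 33.99 ± 22.0 in LFD mice (SD, n = 5 each). It was lower than in LFD mice with estradiol, at -1.65 ± 0.33 (SE, adjusted p = 0.00698), and with placebo, at -2.07 ± 0.33 (SE, adjusted p = 1.37e-04). Malic enzyme Me1 and the citrate carrier Slc25a1 were likewise lower in both high-fat groups, with log2 fold changes against LFD mice of -1.28 in estradiol mice and -1.08 in placebo mice for Me1, and of -0.89 in estradiol mice and -0.73 in placebo mice for Slc25a1. Pfkfb1 and Pfkfb3, which set the level of the phosphofructokinase activator fructose 2,6-bisphosphate, rose with estradiol over placebo by 0.71 and 0.81. Pfkfb2 and Pfkfb4, of the same family, were below the filter and not tested. Pfkfb2 averaged 0.740 ± 0.130 scaled FPKM in estradiol mice and 0.514 ± 0.0704 in placebo mice. Pfkfb4 went the other way, at 0.410 ± 0.141 in estradiol mice and 0.981 ± 0.190 in placebo mice. The tested gene called lower in estradiol than in placebo mice was Gpd1, the cytosolic glycerol 3-phosphate dehydrogenase, at -0.79 ± 0.23 (SE, adjusted p = 0.0177), and it was lower than in LFD mice as well, at -1.28 ± 0.23 (SE, adjusted p = 0.00352). Sdha, the flavoprotein subunit of succinate dehydrogenase, was lower in placebo than in LFD mice, at -0.74 ± 0.18 (SE, adjusted p = 0.00343).

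Of the 3 genes below the filter, Pfkm and Pdk1 are described above with their ratios. Aldoc, the aldolase of brain, had at most 0.0989 scaled FPKM in any library and is not compared.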

How the data were processed

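RNA sequencing of periprostatic fat from 15 male mice, 5 per group, gave 1 library per mouse. The authors extracted total RNA (RNA integrity above 7), removed ribosomal RNA and made stranded libraries, per the labels' protocols. Reads were processed with STAR and Cufflinks on mm10, per the submitters' processing notes, and the deposited values are FPKM per gene symbol. The annotation, versions, library read numbers and the treatment of reads shared between genes are not given in the sources used here. Since the values are FPKM, no count test was run.

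The FPKM of each library were divided by a median-of-ratios factor, since the summed FPKM varied and 1 small RNA gene, Mir6236, took between 10.2% and 53.1% of it. The factor came from the 5874 genes with FPKM above 0 in every library and a mean FPKM of at least 1. Symbols at 1 scaled FPKM or more in at least 5 libraries were tested (5615) on log2(value + 1) with limma 3.58.1 in R 4.3.3 (trend and robust moderation, all 3 groups in 1 model, no block), with Benjamini-Hochberg adjustment over all of them and a threshold of 0.05. Within-group correlations of libraries lay between 0.927 and 0.979. The procedure was tested on simulated data. Isozyme ratios were tested by exact permutation in Python 3.11.15 with numpy 2.4.6. Coordinates are from GENCODE vM21 on GRCm38 and promoters from RefSeq. Values in every library are given for the 4 called genes with the largest absolute log2 fold change in each group of enzymes, and for Pdk2, Idh1, Sucla2 and Pfkl, chosen after their values were seen. Of other pathway genes, at most 3 called ones per comparison with the largest changes are named. Pfkfb1, Pfkfb2, Pfkfb4, Slc25a1 and Sdha were added after their values were seen. Members, lists and pairs were chosen with earlier results of these data known. Alternatives were other scalings, a pseudocount of 0.1, no filter, lane, a replicate block, fewer groups, and leaving out libraries. Tigar was not found in the files and is not analysed here. The result for 1 other pathway gene is not reported here.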

Additional observations from a re-analysis of the deposited data

Results flagged for a closer look

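In groups of 5 libraries, a value whose gap to its nearest neighbour took most of the range of its group (Dixon's test at the 95% level) was found for 25 of 135 gene and group combinations, where chance gives about 1 in 20. Values are scaled FPKM. LFD mouse 2, the library with the highest brown fat markers (summed to 55.9), accounted for 16 of the 25, each time as the highest of its group. These were Hk2 at 5.61, Pdha1 at 22.3, Pdhb at 16.7, Dlat at 5.04, Dld at 12.4, Pdk1 at 2.36, Tkt at 49.3, Cs at 22.4, Idh1 at 13.2, Idh3a at 11.1, Idh3b at 21.01, Idh3g at 17.5, Ogdh at 10.1, Sucla2 at 11.9, Suclg1 at 11.7 and Fh1 at 6.89. The next LFD mouse had 10.8 for Pdha1, 5.66 for Sucla2 and 5.62 for Ogdh, and the part of brown fat in these values was not tested.

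Placebo mouse 4, with brown fat markers summed to 36.8, was the highest of its group for Hk2 at 2.23, Ldhb at 2.64 and Dld at 6.40. Placebo mouse 1, which had the most red cell marker signal (376), was the highest of its group for Pfkm at 0.648 and Pgd at 9.74. In the estradiol group, mouse 3 was high for Idh2 at 5.97 and mouse 4 for Suclg2 at 1.21, and Aldoc was listed at 0 in mouse 1. LFD mouse 5 was the lowest of its group for Hk1 at 0.832.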

How the results depend on the processing

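The median log2 fold changes of the 4 groups of enzymes kept their sign under every alternative except the FPKM as deposited and in 2 cases near 0. For the pentose phosphate route in estradiol against LFD mice, the median turned positive without estradiol mouse 1 (0.05), LFD mouse 2 (0.0184), LFD mouse 3 (0.00739) or the 3 libraries high in brown fat markers (0.0184). For glycolysis in placebo against LFD mice it was -0.0015 with lane as a term and within lane 5. The libraries left out together were chosen after the data had been seen. Of the 21 genes lower in placebo than in LFD mice, 15 kept their call under every alternative other than the deposited scale, and none of the 3 higher ones did. For estradiol against placebo mice 1 of 7 and 1 of 4 did, and for estradiol against LFD mice 0 of 2 and 1 of 5. Read numbers are not known, so what depth limits cannot be given.

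On the FPKM as deposited, which carry the shift of all genes, placebo against LFD mice gave 11 of the 42 genes higher and 0 lower. Of all 5615 tested genes 3009 were then higher and 18 lower, so the share higher in the set was under the background. Both other comparisons gave 0 higher and 0 lower in the set. Of all tested genes 13 were higher and 263 lower in estradiol against placebo mice. In estradiol against LFD mice 39 were higher and 0 lower on this scale. The medians there were 1.04 for glycolysis, 0.16 for pyruvate entry, 0.83 for the pentose phosphate route, 0.63 for the citrate cycle and 0.67 for all members in placebo against LFD mice. They were -0.60, -0.0636, -0.16 and -0.12 for the same 4 groups of enzymes in estradiol against placebo mice, and 0.37, 0.19, 0.65 and 0.45, with 0.37 for all members, in estradiol against LFD mice. Single genes turned positive in placebo against LFD mice: Hk2 0.16, Pfkp 0.80, Pgam1 1.02, Ldhb 0.0878, Pdha1 0.23, Dld 0.49, Pdk2 0.0429, Pcx 0.0452, Mpc1 0.0806, Mpc2 0.62, Taldo1 0.49, Cs 0.66, Aco1 0.29, Idh3b 0.39, Idh3g 0.57, Ogdh 0.44, Dlst 0.63, Suclg2 0.16, Fh1 0.52, Mdh1 0.62 and Mdh2 0.66. In estradiol against LFD mice Pcx 0.13, Mpc2 0.18, Taldo1 0.16 and Mdh1 0.36 did so.

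For placebo against LFD mice, lane as a term and the libraries of lane 5 alone each gave 1 gene higher. For estradiol against placebo mice, lane as a term gave 2 higher and 1 lower, lane 6 alone 1 higher, and leaving out the 3 libraries 19 higher. For estradiol against LFD mice, a constant sum of FPKM gave 3 lower, no filter gave 0 higher and 2 lower, lane as a term gave 0 higher and 2 lower, only the 2 groups compared gave 0 higher, and leaving out the 3 libraries gave 1 higher. Over all 5615 tested genes, a constant sum gave 116 lower and only the 2 groups compared gave 225 higher. No filter gave 214 higher and 185 lower of 18880 symbols. With lane as a term the medians of this comparison were -0.83 for pyruvate entry and -0.46 for the citrate cycle. Of isozyme ratios, lane 5 alone gave 5 for placebo against LFD mice, lane 6 alone gave 0 for estradiol against placebo mice, and leaving out the 3 libraries gave 0 in each comparison, in designs with fewer mice and larger smallest p values for the first 2 comparisons. The cause of the other differences was not tested.

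Leaving out 1 library at a time gave 2 to 6 genes higher and 16 to 22 lower for placebo against LFD mice, 5 to 10 higher and 2 to 5 lower for estradiol against placebo mice, and 0 to 2 higher and 2 to 6 lower for estradiol against LFD mice. Isozyme ratios called ranged from 5 to 8, from 6 to 9 and from 1 to 4 in these comparisons.

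Replicate numbers did not pair the mice, which were different animals, with correlations of same-numbered deviations from -0.21 to 0.36. With a replicate block, 3 genes were higher and 21 lower in placebo against LFD mice, 8 higher and 3 lower in estradiol against placebo mice, and 2 higher and 6 lower in estradiol against LFD mice.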
